A study of Danio rerio with 14 samples.

Results

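The distal tip of the fin rays of zebrafish (Danio rerio) was compared between 7 days of regrowth and the day of amputation. Time is counted in days post amputation (dpa). Genes were included where at least 2 of the 6 libraries of 0 and 7 dpa held at least 1 TPM, the length-corrected unit of transcripts scaled to a total of 1000000 per library, and 10967 of the 14836 genes in the deposited table met this rule. Each time had 3 libraries, and each library was a pool of tissue from 10 animals labelled WT, taken as a strip of about 250 µm at the end of every ray. The labels name no transgene, drug or mutation at either time. The other 8 libraries of the study came from 3, 10 and 14 dpa, in a study titled for gradients of Erk activity and the memory of skeletal size. Their spread entered the fit, and they are named below only where 7 dpa was set against a neighbouring time. The design text gives the group labelled 3 dpa as 3.5 dpa.

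A cut zebrafish fin is first closed by epidermis. Beneath it fibroblasts and bone-forming osteoblasts of the stump lose their mature state, divide and collect as a blastema, the growth zone of the new ray. The tip of a growing ray is stiffened by actinotrichia, unmineralised rods of collagen and actinodin, while osteoblasts that follow behind lay down the bony hemirays. Fgf ligands, which act through receptor kinases and Erk, are made together with Wnt, Hedgehog, Bmp and retinoic acid signals and control how fast the fin grows and where bone forms.

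In whole tissue, fewer cells of a type and less RNA per cell cannot be told apart. No source used here says where the 0 dpa strip lay relative to the cut, so the position and maturity of the tissue cannot be told apart from time. TPM values keep no sequencing depth, so the depth behind each value is unknown. Reads of near-identical genes were divided by estimation, which makes single members of families such as keratins, claudins, chemokines and Mx genes less certain than the family. Because animals were pooled, the p-values measure the spread between pools. The first principal component of the 6 libraries held 62.9% of the variance and separated the days. The second held 26.6% and set apart 1 library of each day, 0 dpa replicate 1 with a score of 43.8 and 7 dpa replicate 2 with 34.6, against -27.2 to -9.66 for the other 4. Both had high fosb, a subunit of the AP-1 factor that cells switch on within minutes of a stimulus. It stood at 1348, 136 and 82.3 TPM at 0 dpa and 68.7, 1702 and 64.8 TPM at 7 dpa. Its difference between the days was -0.33 ± 1.51 on the log2 scale (standard error) (adjusted p = 0.891), so it did not pass, and where a named gene gained or lost its call without these 2 libraries, that value is given. As a check of the tissue label, the keratin krt5 (at least 46024 TPM) and collagen col1a1a (at least 1355 TPM) were abundant in all 6 libraries. Libraries of 1 day correlated across genes at 0.949 to 0.991 and libraries of different days at 0.891 to 0.935.

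At 7 dpa 3389 of the 10967 genes (30.9%) passed an adjusted p of 0.05 against 0 dpa in limma. Of these, 2372 (21.6% of the genes tested) were higher and 1017 (9.27%) lower at 7 dpa. The change exceeded 2-fold in 1300 of the higher and 303 of the lower genes. All changes are differences in log2(TPM + 1), which understates the change of genes near or below 1 TPM. Of the genes tested 329 were below 1 TPM in every 0 dpa library and 80 in every 7 dpa library. These entered through the other day alone, so the inclusion rule itself favoured their direction. Those that entered through 7 dpa alone include scpp5, scpp7, fgf3, has2, dkk1b, ccn1l1, cyp27b1, fabp7a and slc1a4. Their rises and their places in the list counts below therefore add no support. The median gene was 0.19 higher at 7 dpa as deposited and -0.034 after median-of-ratios scaling, which centres the libraries on their median gene. With that scaling 1780 genes were higher and 1891 lower, so the share of higher genes went from 70.0% to 48.5%. None of the 3389 genes changed sign with it. Quantile normalization gave 1547 higher and 1662 lower of the 10967 genes. List counts given below for either scaling are to be read beside these. Values in brackets below are log2 changes between 7 and 0 dpa with their standard error, and where libraries are said to be left out, each was left out alone unless the 2 are named together. Without the 2 libraries with high fosb, 2430 genes were higher and 887 lower, and 2874 of the 3389 remained past the threshold.

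**Figure D1:**
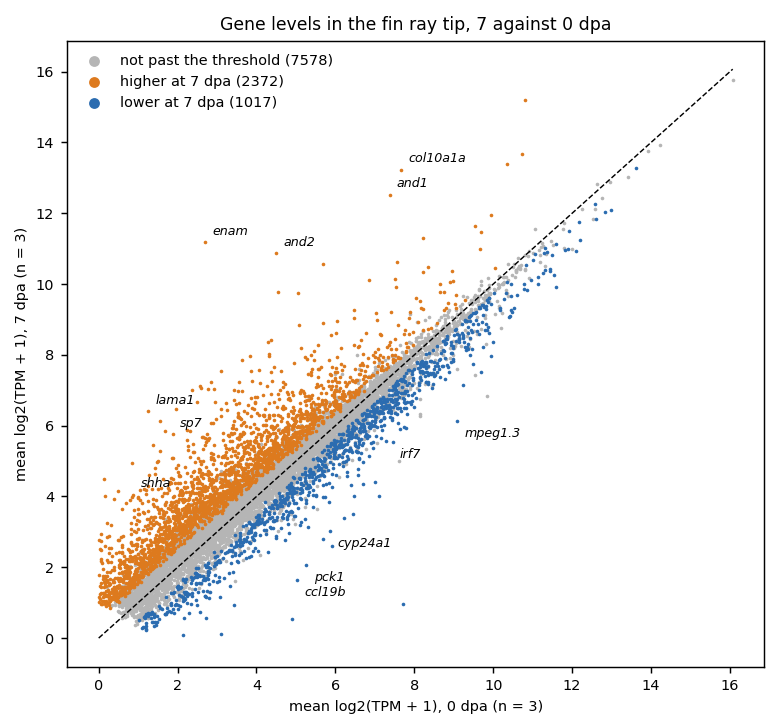
Mean log2(TPM + 1) of each of the 10967 genes at 0 dpa (horizontal) and 7 dpa (vertical), 3 libraries each. Orange points are the 2372 genes higher at 7 dpa, blue points the 1017 lower ones and grey points the rest, and enam, and2 and col10a1a lie farthest above the dashed line of equal levels.

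Among genes with a standard symbol, the largest rises came from genes of the extracellular matrix of the ray tip. Transcripts of enam, which encodes enamelin, a secreted matrix phosphoprotein of the SCPP family, stood at 8.30, 5.87 and 3.35 TPM at 0 dpa and 2642, 2774 and 1725 TPM at 7 dpa, a log2 change of 8.48 ± 0.26 (adjusted p = 5.71e-10). The actinodin gene and2 followed with 30.4, 30.5 and 10.9 TPM at 0 dpa and 2030.3, 2336 and 1409 TPM at 7 dpa (6.37 ± 0.31, adjusted p = 3.09e-08). In both, the lowest 7 dpa library lay far above the highest 0 dpa library. Its partner and1 was more abundant at both times, with 224, 227 and 87.8 TPM at 0 dpa and 6485, 7429 and 4279.7 TPM at 7 dpa (5.16 ± 0.31). The lowly expressed and3 stood at 3.37, 2.23 and 0.603 TPM at 0 dpa and 29.7, 61.4 and 16.2 TPM at 7 dpa (3.50 ± 0.52), and col2a1b, a collagen II of the same rods, rose by 3.26. All 4 tested genes of the actinotrichia list were higher, with a median log2 change of 4.33, against 0.19 over all genes. The summed level of the 5 list genes in the table was 181 to 399.7 TPM in the 0 dpa libraries and 6494 to 11288 TPM in the 7 dpa libraries.

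Among 8 tested genes of the enamelin and SCPP list, the calcium-binding phosphoproteins secreted into bone and teeth, 6 rose and 2 fell. These are 75.0% and 25.0%, against 21.6% and 9.27% of all genes. The phosphoprotein gene scpp7 was close to silent on the day of amputation, with 0.135, 0.0674 and 0.0672 TPM at 0 dpa and 26.5, 24.8 and 14.8 TPM at 7 dpa (4.36 ± 0.29). The related scpp5 was listed at 0 in all 3 libraries of 0 dpa and stood at 2.43, 3.41 and 1.65 TPM at 7 dpa, and no fold is given against a group at 0. Both scpp7 and scpp5 were included through their 7 dpa values alone, so their place among the 6 that rose adds no support. Osteopontin (spp1) went from 15.9 ± 2.18 to 188 ± 14.3 TPM (SD, n = 3 each) and osteonectin (sparc), an abundant collagen-binding protein of bone, from 987 ± 128 to 3971 ± 313 TPM. The 2 that fell, named after their values were seen, were scpp8 (-1.56 ± 0.45) and scpp9 (-0.56 ± 0.14), and both were under 11 TPM in every library of the 2 days. The call of scpp8 was lost if 0 dpa replicate 2 or 7 dpa replicate 2 was left out (adjusted p = 0.0960 and 0.0658).

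Osteoblast regulators rose in 11 of 16 (68.8%, against 21.6% of all genes) and fell in none (against 9.27%), with a median of 1.67. The factor sp7 (osterix), which commits cells to the osteoblast lineage, stood at 5.54, 2.36 and 1.27 TPM at 0 dpa and 45.7, 55.2 and 60.2 TPM at 7 dpa (3.88 ± 0.39, adjusted p = 1.11e-05). Each 7 dpa library was above 45 TPM and each 0 dpa library under 6 TPM. Its upstream factor runx2b rose less, from 7.52 ± 0.840 to 20.2 ± 2.71 TPM (1.31 ± 0.25). Its copy runx2a did not pass (0.88 ± 0.41, adjusted p = 0.125) and passed if 0 dpa replicate 1 was left out (adjusted p = 0.0341). The homeobox gene dlx5a (2.38 ± 0.38) rose as well.

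Genes of bone matrix and mineralisation rose in 12 of 17 (70.6%, against 21.6% of all genes) and fell in 2 (11.8%, against 9.27%). Collagen X (col10a1a), which fish osteoblasts make, stood at 230.1, 219.8 and 164 TPM at 0 dpa and 10294, 11044 and 7867 TPM at 7 dpa (5.56 ± 0.16, adjusted p = 3.44e-10). Collagen I was the most abundant product: col1a1a reached 39944, 46808 and 27698 TPM at 7 dpa against 2075, 2000.5 and 1355 TPM at 0 dpa (4.39 ± 0.21). The phosphatase gene phospho1, which starts mineral formation in matrix vesicles, stood at 3.04, 2.23 and 1.54 TPM at 0 dpa and 65.1, 79.4 and 35.5 TPM at 7 dpa (4.17 ± 0.32). The bone membrane protein gene ifitm5 rose by 4.38 and phex, a peptidase of phosphate balance, by 3.41. Alkaline phosphatase (alpl) had 90.0, 46.1 and 34.5 TPM at 0 dpa and 75.7, 97.1 and 50.5 TPM at 7 dpa. These groups overlap, and alpl did not pass (0.45 ± 0.34, adjusted p = 0.336), although it passed if 0 dpa replicate 1 was left out (adjusted p = 0.0473). Osteocalcin (bglap), a late osteoblast product, stayed under 10 TPM, with 0.931, 0.469 and 1.62 TPM at 0 dpa and 1.77, 8.36 and 8.73 TPM at 7 dpa. It passed with all libraries (adjusted p = 0.0112), not without the 2 with high fosb (1.40, adjusted p = 0.0666), and was lost if 0 dpa replicate 2 was left out (adjusted p = 0.0517). The 2 that fell, named after their values were seen, were the pyrophosphate exporter ankha (-0.99 ± 0.34) and the phosphate importer slc20a1b (-0.77 ± 0.23). Single libraries decided both, since the call of ankha was lost if 0 dpa replicate 2 or 3 or 7 dpa replicate 1 or 2 was left out (adjusted p = 0.0801 to 0.152) and that of slc20a1b lost if 0 dpa replicate 1 or 2 or 7 dpa replicate 1 or 3 was left out (adjusted p = 0.0510 to 0.0913). Without the 2 libraries with high fosb ankha was at -0.87 (adjusted p = 0.0824).

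**Figure D2:**
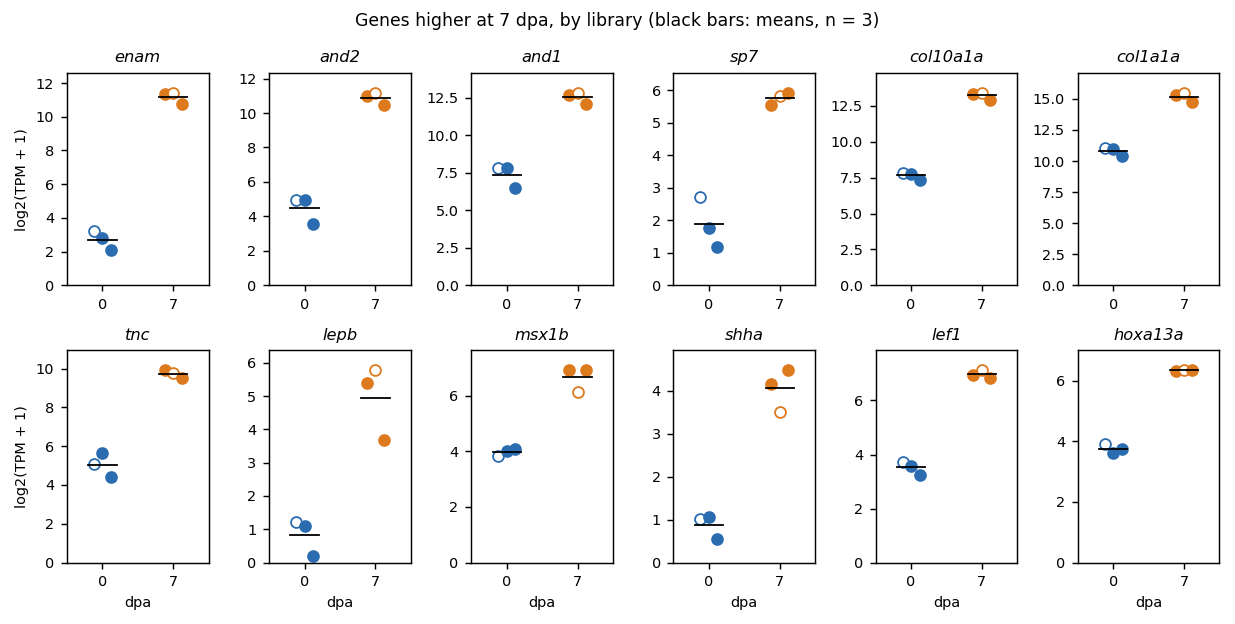
Level of 12 genes of actinotrichia, bone, blastema and signalling in each of the 6 libraries, on a log2(TPM + 1) axis. Points are single libraries, blue for 0 dpa and orange for 7 dpa, with open symbols for the 2 libraries with high fosb. Only genes whose groups did not overlap were drawn, so all 7 dpa libraries lie above all 0 dpa libraries in every panel.

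Genes of ray joints and cartilage-like matrix also stood higher. Of 7 joint genes 6 rose (85.7%, against 21.6% of all genes) and 1 fell (14.3%, against 9.27%). Among the 6 was evx1, a homeobox factor needed for joints to form, which went from 6.49 ± 1.45 to 33.4 ± 4.59 TPM. The parathyroid hormone-like ligand pthlha of joint cells was another (2.62 ± 0.22). The exception was prg4a, which encodes the joint lubricant lubricin: it fell from 94.6, 155 and 142 TPM to 15.7, 13.9 and 37.4 TPM (-2.60 ± 0.38, adjusted p = 0.000240). In the cartilage-like list 9 of 12 rose (75.0%) and none fell. The fibrillar collagen gene col11a2 stood at 26.2, 27.2 and 15.3 TPM at 0 dpa and 930.5, 1077 and 686 TPM at 7 dpa (5.25 ± 0.21) and col11a1b rose by 4.86. The chondrocyte factor sox9b went up modestly (1.08 ± 0.33, adjusted p = 0.0264), and its call was lost if 0 dpa replicate 2 or 3 or 7 dpa replicate 3 was left out (adjusted p = 0.0615 to 0.120). It did not pass with median-of-ratios scaling (0.84, adjusted p = 0.0611) and quantile normalization (0.84, adjusted p = 0.0690), nor did sox9a in any setting tried (0.37 ± 0.32). Of 6 osteoclast markers, genes of bone-resorbing cells, 2 rose (33.3%, against 21.6% of all genes) and 1 fell (16.7%, against 9.27%). The collagen-digesting protease ctsk (1.04 ± 0.14) and acp5a (0.65 ± 0.19) were higher and acp5b (-1.12 ± 0.21) lower. The call of acp5a was lost without the 2 libraries (adjusted p = 0.0559) and lost if 0 dpa replicate 3 or 7 dpa replicate 1 was left out (adjusted p = 0.0757 and 0.0745). It was also lost with median-of-ratios scaling (0.41, adjusted p = 0.176) and quantile normalization (0.49, adjusted p = 0.0916).

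Most fibroblast and blastema genes rose. Of 17 fibroblast markers 16 rose (94.1%, against 21.6% of all genes) and none fell (against 9.27%), with a median of 2.62. Their summed level was 652 to 769 TPM at 0 dpa and 4295 to 5265 TPM at 7 dpa. The defining markers pdgfra, a growth factor receptor (2.19 ± 0.26), twist1a, a mesenchymal transcription factor (2.85 ± 0.18), and dcn, which encodes the collagen-binding protein decorin (3.21 ± 0.16), all rose. None of the 17 was at 0 in all 3 libraries of a day, and their part in the rise of matrix genes was not tested. Of 21 blastema genes 16 rose (76.2%) and none fell. Tenascin C (tnc), a matrix protein of wounds and growth zones, stood at 33.3, 48.9 and 20.3 TPM at 0 dpa and 982, 873 and 734 TPM at 7 dpa (4.69 ± 0.26). The leptin gene lepb, with a well-studied regeneration enhancer, stood at 1.35, 1.15 and 0.134 TPM at 0 dpa and 40.8, 54.5 and 11.8 TPM at 7 dpa (4.11 ± 0.53). The homeobox factors msx1b (2.70 ± 0.28), msx2b (2.62 ± 0.37) and msx3 (3.17 ± 0.27), which mark the distal blastema, were higher at 7 dpa. In all 3 every 7 dpa library was above every 0 dpa library, as in 2919 of the 10967 genes tested. Replicate 2 was the lowest 7 dpa library in all 3. The activin subunit inhbaa rose by 1.94 and the growth factor igf2b by 2.71. The fibronectin gene fn1a rose (3.07 ± 0.22), while its copy fn1b had 1719, 2429.6 and 2309 TPM at 0 dpa and 3931, 1343 and 5017 TPM at 7 dpa and did not pass (adjusted p = 0.402). The 7 dpa library with high fosb was its lowest, and fn1b passed if 7 dpa replicate 2 was left out (adjusted p = 0.0182). It also passed without the 2 libraries with high fosb (0.91, adjusted p = 0.0463).

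The machinery that makes, folds and crosslinks collagen rose in most of its genes. Of 21 collagen genes tested 16 rose (76.2%, against 21.6% of all genes) and none fell. The summed level of the 27 collagen genes in the table was 5805 to 8774 TPM at 0 dpa and 64359.6 to 100090.1 TPM at 7 dpa. Of 27 genes of collagen maturation 24 rose (88.9%) and 1 fell (3.70%, against 9.27%). The collagen chaperone serpinh1b (Hsp47) stood at 4.22, 1.28 and 1.13 TPM at 0 dpa and 51.6, 174 and 36.6 TPM at 7 dpa (4.58 ± 0.61). There 7 dpa replicate 2 was far above the others, and without the 2 libraries the change was 4.34 (adjusted p = 0.000160). The more abundant copy serpinh1a rose by 3.69. Prolyl isomerases of the endoplasmic reticulum (fkbp9 4.05, fkbp14 3.22), the lysyl hydroxylases plod1a (3.69) and plod2 (3.09) and the crosslinking enzyme loxa (3.72) rose too. The list's exception, named after its value was seen, was pcolceb, an enhancer of procollagen cleavage (-0.59 ± 0.15). The calcium-binding chaperone rcn3 of the secretory pathway (4.46 ± 0.49), the membrane protein cd81b (4.64 ± 0.24) and the secreted matrix protein spon2a (4.52 ± 0.29) completed the 12 largest rises. General genes of the secretory pathway moved less, with 13 of 49 higher (26.5%, near the 21.6% of all genes), 3 lower and a median of 0.22. After median-of-ratios scaling 8 were higher and 5 lower, and after quantile normalization 15 and 1. Without the 2 libraries with high fosb 19 were higher and 1 lower. The stress sensor product xbp1 (-0.24 ± 0.11, adjusted p = 0.121) and the chaperone hspa5 (0.22 ± 0.38, adjusted p = 0.696) did not pass, though xbp1 passed if 7 dpa replicate 2 was left out (adjusted p = 0.0456) and was lower with median-of-ratios scaling (-0.48, adjusted p = 0.00598).

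All 19 tested genes of the basement membrane and Fraser complex, the proteins that anchor epidermis to the tissue beneath, rose. The laminin chain lama1 was near 0 on the day of amputation, with 0.608, 2.43 and 1.47 TPM at 0 dpa and 109, 66.6 and 81.7 TPM at 7 dpa (5.15 ± 0.39, adjusted p = 1.11e-06). Fibrillin fbn2b (3.78 ± 0.31), the Fraser proteins frem2a (3.72 ± 0.39) and fras1 (2.19 ± 0.25) and the epidermal laminin lama5 (1.83 ± 0.35) followed. Of 9 genes of hyaluronan matrix 6 rose (66.7%, against 21.6% of all genes). The link protein gene hapln1a stood at 15.4, 20.1 and 21.6 TPM at 0 dpa and 271, 232 and 277 TPM at 7 dpa (3.71 ± 0.15), and versican (vcana, 3.56 ± 0.28) and the hyaluronan synthase has2 (2.28 ± 0.32) were higher. The rise of has1 (2.24 ± 0.66) did not pass without the 2 libraries (adjusted p = 0.0680), and its call was lost if 0 dpa replicate 2 or 3 or 7 dpa replicate 1 or 2 was left out (adjusted p = 0.0523 to 0.0799). Of 19 matrix proteases and their inhibitors 11 rose (57.9%) and 1 fell (5.26%, against 9.27% of all genes). The membrane protease mmp14a (1.79 ± 0.14) and its substrate mmp2 (2.13 ± 0.18) rose, as did adamts3, a procollagen peptidase (3.33 ± 0.35). The collagenase mmp13a had 38.3, 58.8 and 19.3 TPM at 0 dpa and 32.9, 25.6 and 30.4 TPM at 7 dpa, with overlapping groups (adjusted p = 0.566), and it passed if 0 dpa replicate 3 was left out (adjusted p = 0.0474). The single fall was the inhibitor timp4.3 (-1.59 ± 0.33), named after its value was seen.

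Among the signalling lists Hedgehog had the largest share of higher genes: 18 of 19 tested (94.7%) rose and none fell, with a median of 1.88. The ligand gene shha stood at 1.01, 1.08 and 0.469 TPM at 0 dpa and 16.8, 10.4 and 21.4 TPM at 7 dpa (3.18 ± 0.38, adjusted p = 5.16e-05). The signal transducer smo (2.41 ± 0.20), the co-receptor boc (2.74 ± 0.36) and the release factor scube2 (2.53 ± 0.29) rose. Among the direct targets gli1 had 18.8, 12.4 and 5.42 TPM at 0 dpa and 43.4, 60.5 and 53.2 TPM at 7 dpa (2.15 ± 0.31), and ptch1 had 61.9, 21.8 and 10.6 TPM at 0 dpa and 61.0, 120.3 and 109 TPM at 7 dpa. In ptch1 (1.88 ± 0.48, adjusted p = 0.0107) the 0 dpa library with high fosb overlapped the 7 dpa group by a narrow margin. Without the 2 libraries its change was 2.34 (adjusted p = 0.000960). Its call was lost when the libraries of 0 and 7 dpa were fitted alone (adjusted p = 0.0619).

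Of 55 Wnt pathway genes 35 rose (63.6%, against 21.6% of all genes) and none fell (against 9.27%). The transcription factor lef1, itself a Wnt target, stood at 12.3, 11.0 and 8.44 TPM at 0 dpa and 121, 140.0 and 113 TPM at 7 dpa (3.45 ± 0.15, adjusted p = 1.88e-08). The ligand genes wnt10a (2.09 ± 0.34) and wnt5b (1.78 ± 0.33), of which wnt5b slows fin regrowth in zebrafish, both rose, as did the feedback gene axin2 (1.89 ± 0.35). Secreted inhibitors rose alongside, with dkk1a at 2.71 ± 0.44, dkk1b at 1.98 ± 0.40, dkk3b at 2.65 ± 0.16, sfrp2 at 2.62 ± 0.29 and sfrp1a at 2.51 ± 0.27.

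Of 57 Bmp, Tgfb and activin genes 33 rose (57.9%, against 21.6% of all genes) and 1 fell (1.75%, against 9.27%). The ligands bmp2b (1.47 ± 0.19), bmp4 (1.27 ± 0.17), bmp8a (2.59 ± 0.20) and tgfb2 (2.50 ± 0.33) rose, and bmp2a did not pass (0.36 ± 0.19, adjusted p = 0.164). The target id1 rose (1.07 ± 0.29) as deposited, its call was lost if 7 dpa replicate 1 or 3 was left out (adjusted p = 0.0595 and 0.0558), and it did not pass after median-of-ratios scaling (0.82, adjusted p = 0.0789). The antagonists grem2b (2.09 ± 0.27), which binds Bmp, and fstb and fsta (follistatins, 2.22 and 2.02), which bind activin, were higher. The receptor gene bmpr1ba was the single fall (-0.64 ± 0.17), named after its value was seen. Its call was lost when the libraries of 0 and 7 dpa were fitted alone (adjusted p = 0.0543).

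Fgf ligand genes rose in 9 of 14 (64.3%) and Fgf receptor genes in 5 of 7 (71.4%), against 21.6% of all genes, and none fell. The ligand fgf3 stood at 0.539, 0.472 and 0.470 TPM at 0 dpa and 5.66, 3.95 and 3.44 TPM at 7 dpa (1.82 ± 0.19, adjusted p = 1.46e-05). The ligand fgf20a, which starts fin regeneration, stood at 2.70, 1.49 and 1.47 TPM at 0 dpa and 3.35, 6.30 and 5.16 TPM at 7 dpa (1.03 ± 0.27, adjusted p = 0.0117). In both genes all 7 dpa libraries were above all 0 dpa libraries, as in 2919 of the 10967 genes tested, and neither reached 10 TPM. Since fgf3 was included through its 7 dpa values alone, its separation and its place among the 9 add no support. The mesenchymal ligand fgf10a rose by 0.93 with all libraries (adjusted p = 0.0385) and not without the 2 (adjusted p = 0.0604). Its call was also lost if 0 dpa replicate 1 or 3 or 7 dpa replicate 1 or 3 was left out (adjusted p = 0.0597 to 0.146), and with median-of-ratios scaling (0.71, adjusted p = 0.153) and quantile normalization (0.60, adjusted p = 0.257). The ligand fgf24 did not pass (-0.13 ± 0.35). Among receptors fgfr1a (1.23 ± 0.21), fgfr4 (1.49 ± 0.25) and the decoy-like fgfrl1b (2.11 ± 0.44) rose. The receptors fgfr2 (0.93 ± 0.42, adjusted p = 0.117) and fgfr3 (1.44 ± 0.53, adjusted p = 0.0550) did not pass, though fgfr2 passed if 0 dpa replicate 1 was left out (adjusted p = 0.0371). The values of fgfr3 were 106, 25.7 and 21.4 TPM at 0 dpa and 59.2, 168 and 125 TPM at 7 dpa, with 0 dpa replicate 1 inside the range of 7 dpa, and without the 2 libraries the change was 1.83 (adjusted p = 0.00390). It passed if 0 dpa replicate 1 or 7 dpa replicate 1 was left out (adjusted p = 0.00162 and 0.0256).

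Of 26 genes of Erk feedback and targets 8 rose (30.8%, against 21.6% of all genes) and 1 fell, and with median-of-ratios scaling 7 were higher and 5 lower. The Ets factors etv5b (49.1, 32.2 and 23.0 TPM at 0 dpa and 115, 87.4 and 96.5 TPM at 7 dpa), etv5a (1.19 ± 0.19) and etv4 (0.81 ± 0.22), which Fgf and Erk induce, rose, etv5b by 1.55 ± 0.22. The call of etv4 was lost if 0 dpa replicate 2 or 3 was left out (adjusted p = 0.0625 and 0.0664). The antagonist spry1 (1.47 ± 0.28), the Ras inhibitor spred2b (1.34 ± 0.23) and myca, a Myc gene (1.86 ± 0.18), also rose. The antagonist spry2 (-0.17 ± 0.19, adjusted p = 0.533) did not pass. Its relative spry4 did not pass (0.66 ± 0.34, adjusted p = 0.158) and passed if 0 dpa replicate 1 was left out (adjusted p = 0.0251). The phosphatase dusp4 did not pass (-0.70 ± 0.36, adjusted p = 0.152), passed if 0 dpa replicate 3 was left out (adjusted p = 0.0213) and was lower with median-of-ratios scaling (-0.93, adjusted p = 0.0439) and quantile normalization (-1.02, adjusted p = 0.0271). The single fall, named after its value was seen, was the Erk phosphatase dusp7 (-0.46 ± 0.084).

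The retinoic acid list had 8 of 24 higher (33.3%, against 21.6% of all genes) and 1 lower (4.17%, against 9.27%). The enzyme aldh1a2, which makes retinoic acid, stood at 7.49, 5.00 and 5.29 TPM at 0 dpa and 44.9, 52.7 and 44.7 TPM at 7 dpa (2.82 ± 0.16, adjusted p = 1.02e-07). The binding proteins crabp2b (2.85 ± 0.24) and rbp5 (2.43 ± 0.22) and the degrading enzyme cyp26b1 (1.09 ± 0.25) rose with it, and the receptor raraa was the fall (-0.77 ± 0.22), its call lost if 0 dpa replicate 2 or 7 dpa replicate 2 was left out (adjusted p = 0.0821 and 0.0692). Of 23 Notch genes 6 rose (26.1%) and 1 fell (4.35%), near the 21.6% and 9.27% of all genes. The target her6 (2.14 ± 0.19) and the modifier lfng (1.68 ± 0.20) were higher, and the ligand dlc fell from 149.7, 77.9 and 73.2 TPM to 19.8, 38.2 and 16.9 TPM (-1.97 ± 0.35). In the Igf list 8 of 15 rose (53.3%) and 1 fell (6.67%). The ligand gene igf2a (2.26 ± 0.27) and the binding protein igfbp6b (1.66 ± 0.26) were higher. The receptor adaptor irs2a fell (-1.05 ± 0.20), named after its value was seen.

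Transcription factors that mark position along the limb or fin rose in 24 of 33 (72.7%) and fell in none. The distal factor hoxa13a, needed for fin rays, stood at 14.0, 11.4 and 12.4 TPM at 0 dpa and 79.9, 81.7 and 81.0 TPM at 7 dpa (2.59 ± 0.14, adjusted p = 5.29e-08). Its copy hoxa13b, higher at the start, rose by 0.96, hoxc13b by 2.43 and hoxd13a, under 3 TPM in all 6 libraries, by 1.17. The T-box gene tbx18 (2.88 ± 0.41) and the LIM factors lhx2b, lhx9 and lmx1ba (2.64, 2.26 and 2.22) rose too. Of 13 genes tied to fin length 6 rose (46.2%, against 21.6% of all genes). The guidance cue sema3d (2.57 ± 0.22), the calcium channel cacna1c (1.21 ± 0.23) and the calcineurin regulator rcan2 (1.31 ± 0.31) were higher. The potassium channel kcnk5b, whose activation lengthens fins, had 28.3, 29.7 and 25.0 TPM at 0 dpa and 22.7, 25.3 and 17.6 TPM at 7 dpa and did not pass (-0.34 ± 0.17, adjusted p = 0.150); it was lower with median-of-ratios scaling (-0.57, adjusted p = 0.0197) and quantile normalization (-0.58, adjusted p = 0.0189). In the list of Yap and Tead targets 4 of 15 rose (26.7%) and 2 fell (13.3%), near the 21.6% and 9.27% of all genes, with ccn2a at 1.55 ± 0.25 and ccn1l1 at 2.04 ± 0.22 higher, and ccn2b (-0.80 ± 0.27) and amotl2b (-0.58 ± 0.19) lower. The call of ccn2b was lost if 0 dpa replicate 1, 2 or 3 or 7 dpa replicate 1 or 2 was left out (adjusted p = 0.0580 to 0.152), and that of amotl2b lost if 0 dpa replicate 1 or 2 or 7 dpa replicate 1 or 3 was left out (adjusted p = 0.0966 to 0.129). Without the 2 libraries with high fosb neither passed (adjusted p = 0.0807 for ccn2b and 0.0723 for amotl2b).

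Mitosis genes rose in 31 of 66 (47.0%, against 21.6% of all genes) and fell in none, by modest amounts with a median of 0.61. The topoisomerase top2a had 76.2, 47.1 and 40.0 TPM at 0 dpa and 93.5, 142 and 86.6 TPM at 7 dpa (0.99 ± 0.25), the cyclin ccnb1 rose by 0.78 and its kinase cdk1 by 0.61. The call of cdk1 was lost if 0 dpa replicate 2 or 3 or 7 dpa replicate 2 was left out (adjusted p = 0.0774 to 0.0891), and with median-of-ratios scaling (0.37, adjusted p = 0.0565) and quantile normalization (0.34, adjusted p = 0.0865). The proliferation marker mki67 did not pass with all libraries (0.58 ± 0.24, adjusted p = 0.0886) and did without the 2 (0.64, adjusted p = 0.0263), and it passed if 0 dpa replicate 1 was left out (adjusted p = 0.0111). The count hung on the scaling: it was 22 with median-of-ratios and 13 with quantile normalization. Genes of DNA replication rose in 5 of 59 (8.47%, under the 21.6% of all genes). After median-of-ratios scaling 3 replication genes were higher, and after quantile normalization 1. The helicase subunit mcm5 had 71.5, 27.8 and 23.3 TPM at 0 dpa and 44.5, 112 and 35.7 TPM at 7 dpa. The highest library of each day was the one with high fosb, and neither mcm5 (0.63 ± 0.54, adjusted p = 0.402) nor the clamp gene pcna (0.43 ± 0.30, adjusted p = 0.288) passed.

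Vessel and pigment cell markers were also counted. Of 29 markers of blood and lymph vessels 15 rose (51.7%, against 21.6% of all genes) and none fell. The clotting factor vwf, made by vessel walls, stood at 0.878, 1.42 and 1.14 TPM at 0 dpa and 13.3, 15.0 and 11.6 TPM at 7 dpa (2.73 ± 0.24), and egfl7 (2.38 ± 0.24), angpt2b (2.37 ± 0.23) and the endothelial factor fli1a (1.64 ± 0.14) rose, while the receptor kdrl did not pass (0.31 ± 0.22). Of 15 melanophore markers 7 rose (46.7%, against 21.6% of all genes) and 1 fell (6.67%, against 9.27%). After median-of-ratios scaling 5 were higher and 2 lower, and after quantile normalization 4 and 2. The pigment granule gene pmela stood at 72.8, 93.5 and 48.7 TPM at 0 dpa and 211, 212 and 211 TPM at 7 dpa (1.60 ± 0.23), tyrp1b and dct of melanin synthesis rose by 1.65 and 1.29, and mlpha, a granule tether, fell (-0.61 ± 0.14; named after its value was seen). Of 12 xanthophore markers 5 rose (41.7%) and of 14 iridophore markers 3 rose (21.4%, near the 21.6% of all genes). No member of either list fell. The xanthophore enzyme gene aox5 had overlapping libraries (0.61 ± 0.20) and its call was lost if 0 dpa replicate 2 or 3 or 7 dpa replicate 1 or 2 was left out (adjusted p = 0.0637 to 0.152). It was also lost with median-of-ratios scaling (0.37, adjusted p = 0.140) and quantile normalization (0.42, adjusted p = 0.107). The call of the purine enzyme gene pnp4a of iridophores (1.12 ± 0.30) was lost if 0 dpa replicate 3 was left out (adjusted p = 0.0622) and with quantile normalization (0.74, adjusted p = 0.0511). After median-of-ratios scaling 3 xanthophore markers were higher and 2 lower, and 3 iridophore markers were higher and 5 lower. Of 13 Schwann cell and nerve markers 3 rose (23.1%) and 1 fell (7.69%), near the shares of all genes, with a list median of -0.14. After median-of-ratios scaling 2 were higher and 5 lower, and after quantile normalization 2 and 4. The largest rise of the list was fabp7a, at 0.0674, 0 and 0.0671 TPM at 0 dpa and 6.58, 7.89 and 5.76 TPM at 7 dpa (2.88 ± 0.29). This gene was included through its 7 dpa values alone. Of 8 muscle markers 4 rose and 2 fell, shares above the 21.6% and 9.27% of all genes, with a list median of 0.36. The counts were 3 and 2 after median-of-ratios scaling, and 2 and 2 after quantile normalization. The 2 that fell as deposited were the smooth muscle genes myh11a (-1.03 ± 0.16) and acta2 (-0.60 ± 0.19). The call of acta2 was lost if 0 dpa replicate 2 or 3 or 7 dpa replicate 1 or 3 was left out (adjusted p = 0.0695 to 0.121). None of the 12 erythrocyte and 2 ionocyte markers tested passed.

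Among lists of 10 or more tested genes, the largest shares of lower genes were in interferon response (71.8%), macrophages (53.8%) and lymphocytes (45.0%), against 9.27% of all genes. Of 39 interferon-response genes 28 fell and none rose, with a median of -1.04. The antiviral enzyme rsad2 (viperin) stood at 51.8, 45.4 and 89.1 TPM at 0 dpa and 22.5, 18.6 and 14.8 TPM at 7 dpa (-1.64 ± 0.35, adjusted p = 0.00331), and mxb of the antiviral Mx family at 208, 224 and 239.9 TPM at 0 dpa and 97.8, 87.2 and 59.9 TPM at 7 dpa (-1.47 ± 0.23). The regulator irf7 stood at 279, 131 and 145 TPM at 0 dpa and 40.7, 124 and 18.2 TPM at 7 dpa (-1.92 ± 0.59, adjusted p = 0.0265), and its call was lost if 0 dpa replicate 1 or 7 dpa replicate 1 or 3 was left out (adjusted p = 0.0658 to 0.109). In these 3 genes no 7 dpa library reached the lowest 0 dpa library, as in 1394 of the 10967 genes tested. For irf7 the 7 dpa library with high fosb came close. The feedback inhibitor socs1a (-1.80 ± 0.38) and the ubiquitin-like isg15 (-1.48 ± 0.43) fell as well, and the call of isg15 was lost if 0 dpa replicate 1 or 7 dpa replicate 1 or 3 was left out (adjusted p = 0.0544 to 0.0817). Among those not called, the transducer stat1a did not pass (-0.47 ± 0.17, adjusted p = 0.0543). Without the 2 libraries 31 of the 39 fell, stat1a among them (adjusted p = 0.0234), and stat1a passed if 7 dpa replicate 2 was left out (adjusted p = 0.00964). It was also lower with median-of-ratios scaling (-0.72, adjusted p = 0.00314).

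Of 26 markers of macrophages 14 fell and none rose. The pore-forming gene mpeg1.3 stood at 688, 522 and 445 TPM at 0 dpa and 54.0, 96.9 and 64.0 TPM at 7 dpa (-2.95 ± 0.32, adjusted p = 2.24e-05). Its 7 dpa libraries all lay below its 0 dpa libraries, as in 1394 of the 10967 genes tested. Its relative mpeg1.1, the usual macrophage marker, fell by less (-0.65 ± 0.15), and mpeg1.2 did not pass (-0.70 ± 0.48). How reads were divided among these related genes was not tested. The granulin grn2 (-2.35 ± 0.24), the actin regulator coro1a (-1.23 ± 0.22) and the antigen-presentation gene cd74b (-1.05 ± 0.11) fell. The gene irg1l, whose mammalian relative makes itaconate in macrophages, stood at 126, 42.1 and 38.7 TPM at 0 dpa and 7.03, 21.6 and 0.198 TPM at 7 dpa (-3.32 ± 1.13, adjusted p = 0.0407), and its call was lost if 0 dpa replicate 1, 2 or 3 or 7 dpa replicate 1 or 3 was left out (adjusted p = 0.0640 to 0.165). The summed level of the 27 macrophage markers in the table was 11426 to 14193 TPM at 0 dpa and 6967 to 7891 TPM at 7 dpa. The part of immune cells in the fall of interferon genes was not tested.

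Neutrophil markers fell in 6 of 15 (40.0%, against 9.27% of all genes), among them lect2l (-1.19 ± 0.27). The granule enzyme mpx did not pass (-0.71 ± 0.34, adjusted p = 0.135) and passed if 7 dpa replicate 2 was left out (adjusted p = 0.0313). It was lower with median-of-ratios scaling (-0.94, adjusted p = 0.0411) and quantile normalization (-1.05, adjusted p = 0.0240). Their summed level was 798 to 1397 TPM at 0 dpa and 497 to 653 TPM at 7 dpa. Of 20 lymphocyte markers 9 fell, including the T cell kinases lck, with 30.2, 17.5 and 16.1 TPM at 0 dpa and 7.27, 14.9 and 6.45 TPM at 7 dpa (-1.11 ± 0.30), and zap70 (-1.09 ± 0.29) and the receptor il7r (-1.23 ± 0.21). The call of lck was lost if 7 dpa replicate 1 or 3 was left out (adjusted p = 0.0524 and 0.0622) and that of zap70 lost if 7 dpa replicate 3 was left out (adjusted p = 0.0550). The 1 that rose, tnfrsf9a, overlapped between the days (1.13 ± 0.40) and was lost if 0 dpa replicate 2 or 3 or 7 dpa replicate 1 or 3 was left out (adjusted p = 0.0908 to 0.183), and with median-of-ratios scaling (0.90, adjusted p = 0.117) and quantile normalization (0.79, adjusted p = 0.171). The summed level of the 25 lymphocyte markers in the table was 468 to 966 TPM at 0 dpa and 362 to 583 TPM at 7 dpa. These ranges overlap. Of 47 chemokine and cytokine genes 10 fell (21.3%, against 9.27% of all genes) and 2 rose (4.26%, against 21.6%). The chemokine ccl19b, which draws lymphocytes and dendritic cells in mammals, stood at 57.0, 21.1 and 25.6 TPM at 0 dpa and 1.05, 4.35 and 1.79 TPM at 7 dpa (-3.38 ± 0.44), and ccl19a.1 at 102, 34.3 and 37.1 TPM at 0 dpa and 5.53, 14.2 and 2.32 TPM at 7 dpa (-2.90 ± 0.58). In both, 0 dpa replicate 1 was the highest library, and without the 2 libraries the changes were -3.34 and -2.98 (adjusted p = 9.60e-05 and 0.00142). The cytokine il1b did not pass (-0.80 ± 0.46, adjusted p = 0.204).

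**Figure D3:**
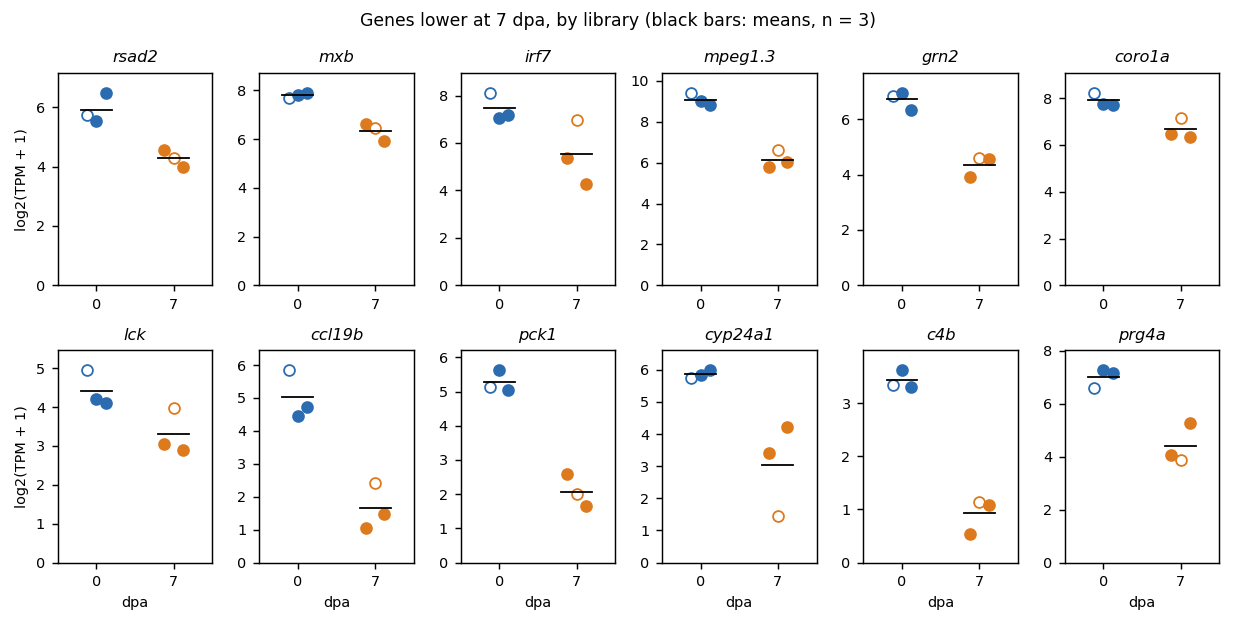
Level of 12 genes that fell, of interferon response, immune cells and metabolism, in each of the 6 libraries, on a log2(TPM + 1) axis. Points are single libraries, blue for 0 dpa and orange for 7 dpa, with open symbols for the 2 libraries with high fosb. Only genes whose groups did not overlap were drawn, so all 7 dpa libraries lie below all 0 dpa libraries in every panel.

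Other large falls were in genes of metabolism and secreted proteins. The enzyme pck1, which controls the first committed step of gluconeogenesis, stood at 34.0, 48.9 and 31.7 TPM at 0 dpa and 4.99, 3.02 and 2.12 TPM at 7 dpa (-3.19 ± 0.37, adjusted p = 3.45e-05). The vitamin D hydroxylase cyp24a1, which inactivates the hormone, stood at 53.1, 55.9 and 63.2 TPM at 0 dpa and 9.73, 1.74 and 17.6 TPM at 7 dpa (-2.83 ± 0.79, adjusted p = 0.0166). The lowest 7 dpa library was the one with high fosb, and without the 2 libraries the change was -2.10 and did not pass (adjusted p = 0.0827). The call was lost if 7 dpa replicate 2 was left out (adjusted p = 0.0618). In the vitamin D and phosphate list 5 of 7 rose (71.4%, against 21.6% of all genes). The 1 that fell was cyp24a1 (14.3%, against 9.27%). Among the 5 was cyp27b1 (1.51 ± 0.37), which makes the active hormone. It was included through its 7 dpa values alone, so its rise adds no support. The complement gene c4b had 9.11, 11.4 and 8.90 TPM at 0 dpa and 0.460, 1.21 and 1.12 TPM at 7 dpa (-2.50 ± 0.22). The lipocalin ptgdsb.2 stood at 803, 812 and 848 TPM at 0 dpa and 142, 179 and 231 TPM at 7 dpa (-2.18 ± 0.27). The sterol dehydrogenase hsd3b7 (-2.09 ± 0.37) and gig2q, of a virus-induced fish gene family (-2.17 ± 0.30), were also among the 12 largest falls of genes with a standard symbol. Genes of sterol and fatty acid synthesis fell in 6 of 38 (15.8%, against 9.27% of all genes) and rose in 2 (5.26%, against 21.6%). Their median was -0.60. The rate-limiting enzyme hmgcra stood at 142, 278 and 269 TPM at 0 dpa and 81.3, 24.9 and 104 TPM at 7 dpa (-1.86 ± 0.54), and its call was lost if 0 dpa replicate 2 or 3 or 7 dpa replicate 2 was left out (adjusted p = 0.0670 to 0.0754). The receptor ldlra had 27.3, 159.7 and 162 TPM at 0 dpa and 123, 14.8 and 80.8 TPM at 7 dpa. It was lowest in the library with high fosb on each day and did not pass (adjusted p = 0.552).

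Markers of superficial epidermis were more often lower than higher. Of 31 markers of superficial epidermis 11 fell (35.5%, against 9.27% of all genes) and 1, the keratin krt94 (1.32 ± 0.23), rose. The adhesion protein epcam stood at 4758, 4965 and 4374 TPM at 0 dpa and 2548, 2513 and 2219 TPM at 7 dpa (-0.95 ± 0.097, adjusted p = 1.24e-05). The mucus cell gene agr2 (-1.90 ± 0.28) and the tight junction genes cldnh (-1.51 ± 0.16) and cldne (-1.31 ± 0.21) fell, and the keratin krt4 did not pass with all libraries (-0.39 ± 0.17) and passed if 0 dpa replicate 1 or 7 dpa replicate 3 was left out (adjusted p = 0.0486 and 0.0452). It was lower with median-of-ratios scaling (-0.63, adjusted p = 0.0378) and quantile normalization (-0.54, adjusted p = 0.0371). Of 10 basal epidermis markers 1 rose (lamb4, 1.34 ± 0.37) and 1 fell (cldni, -0.85 ± 0.12), and the call of lamb4 was lost if 0 dpa replicate 2 or 3 or 7 dpa replicate 2 was left out (adjusted p = 0.0505 to 0.0712). The most abundant of them, krt5, had 55498, 67835 and 86469 TPM at 0 dpa and 56545, 46024 and 67588 TPM at 7 dpa, with overlapping groups, and neither it nor the basal cell factor tp63 passed (adjusted p = 0.212 and 0.626). The 33 superficial markers in the table summed to 54795 to 72825 TPM at 0 dpa and 40323 to 57936 TPM at 7 dpa, ranges that overlap. With median-of-ratios scaling 17 tested members fell (1891 over all genes). With quantile normalization 10 fell (1662 over all genes), and without the 2 libraries with high fosb 8 (887 over all genes). Lateral line markers fell in 3 of 6, with sox3 at -1.08 ± 0.27.

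Calls of housekeeping genes depended on scaling and libraries. Over all genes 21.6% were higher and 9.27% lower as deposited. Of the 10967 genes 1780 were higher and 1891 lower with median-of-ratios scaling, and 1547 and 1662 with quantile normalization. Without the 2 libraries with high fosb 2430 were higher and 887 lower. Of 83 cytosolic ribosome genes 24 fell as deposited, with a median of -0.22. With median-of-ratios scaling 77 fell, with quantile normalization 2, and without the 2 libraries 1. Proteasome genes fell in 15 of 47, 6 without the 2 libraries. The exception was the subunit gene psmb7, which stood at 9.38, 14.0 and 9.52 TPM at 0 dpa and 79.8, 68.8 and 74.6 TPM at 7 dpa (2.67 ± 0.18, adjusted p = 3.22e-07), while the activator subunits psme1 (-0.66 ± 0.13) and psme2 (-0.77 ± 0.13), which interferon induces, fell. Respiratory chain genes were higher in 3 and lower in 2 of 84, and lower in 17 with median-of-ratios scaling. Lysosome genes were higher in 5 and lower in 3 of 59, and lower in 18 with that scaling. Glycolysis genes were higher in 5 and lower in 2 of 27, and higher in 1 and lower in 7 with it. Ribosome biogenesis had 2 higher and 4 lower of 93, heat shock genes 3 and 2 of 48, and gluconeogenesis and fat oxidation 5 and 1 of 30. Amino acid response genes split 7 and 7 of 41. The serine pathway gene psat1 (1.12 ± 0.14) and the transporter slc1a4, at 0.810, 0.608 and 0.201 TPM at 0 dpa and 12.5, 12.9 and 9.53 TPM at 7 dpa (3.05 ± 0.19), rose, while ddit4, an inhibitor of growth signalling, fell (-1.13 ± 0.22). In the AP-1 list 4 rose (10.0%) and 2 fell (5.00%) of 40. Of 41 circadian clock genes 7 rose (17.1%) and 6 fell (14.6%). The activators arntl1a (1.40 ± 0.22) and clockb (1.40 ± 0.21) were higher and the repressor bhlhe41 (-1.10 ± 0.16) lower, and no source used here gives the hour of collection.

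**Figure D4:**
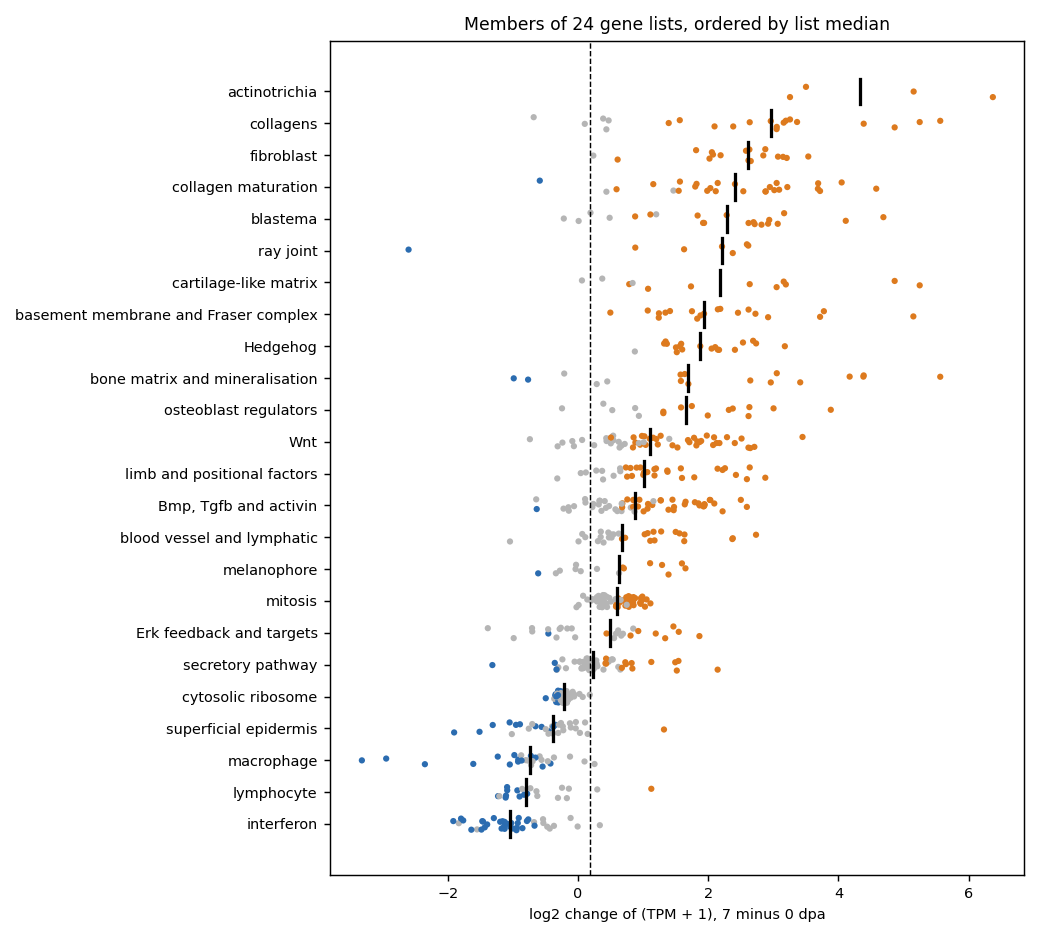
Log2 change between 7 and 0 dpa of every tested member of 24 gene lists, ordered by list median. Orange points rose, blue points fell and grey points did not pass an adjusted p of 0.05, and the black list medians run from actinotrichia at 4.33 to interferon at -1.04 around the dashed median of all genes at 0.19.

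The 7 dpa libraries were also set against the neighbouring times. In the same fit 1789 of the 10967 genes (16.3%) passed between 7 and 3 dpa, 1013 (9.24%) higher at 7 dpa and 776 (7.08%) lower. The genes were chosen by their values at 0 and 7 dpa, and the same rule over all 14 libraries holds 11272. A gene high at 3 dpa but under 1 TPM at 0 and 7 dpa was not tested, so the inclusion rule worked against falls from 3 to 7 dpa. This count was 1918 with median-of-ratios scaling, 2205 with quantile normalization and 1957 without the 2 libraries with high fosb. At 3 dpa fosb stood at 102, 41.1 and 23.0 TPM. The list counts against 3 dpa were not tried under these settings. Between 7 and 10 dpa 0 genes passed in limma (0%), 778 had an unadjusted p under 0.05, and the alternative settings gave 0 to 2 passing. The libraries with high fosb were not balanced, with fosb at 68.7, 1702 and 64.8 TPM at 7 dpa and 46.3, 886 and 1343 TPM at 10 dpa. The unadjusted count ranged from 367 without 10 dpa replicate 2 to 1564 without 10 dpa replicate 1. The absence of calls therefore does not show that 7 and 10 dpa were alike. These comparisons share the 7 dpa libraries with the one above, so values are set side by side and no overlap is counted.

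Among the genes tested that had a standard symbol, the 5 largest falls from 3 to 7 dpa are named first. The serotonin-synthesis enzyme tph1b had 78.9 ± 15.5 TPM at 3 dpa and 1.57 ± 0.772 TPM at 7 dpa (SD, n = 3 each; -4.98 ± 0.22, adjusted p = 9.03e-08), and pcp4a, a calmodulin regulator, 216 ± 16.1 and 19.1 ± 2.94 TPM. The Fraser family gene frem3 (-3.41 ± 0.40), the histamine receptor hrh3 (-3.34 ± 0.35) and the neuronal vesicle gene nrsn1 (-3.01 ± 0.23) followed. Over all genes 7.08% were lower and 9.24% higher at 7 than at 3 dpa. Of 21 blastema genes 11 were lower at 7 than at 3 dpa and none higher, including tnc (-1.46 ± 0.26), lepb (-2.03 ± 0.53) and msx2b (-1.94 ± 0.37). Collagen maturation genes were lower in 13 and higher in 3 of 27, and secretory pathway genes lower in 26 of 49. The actinodins and1 and and2 were lower than at 3 dpa (-1.25 ± 0.31 and -1.40 ± 0.31) and enam too (-1.07 ± 0.26), while and3 was higher (2.07 ± 0.52). Among the Fgf ligands fgf20a had 27.3 ± 5.83 TPM at 3 dpa and 4.94 ± 1.48 TPM at 7 dpa (-2.26 ± 0.27, adjusted p = 0.000171). No Hedgehog gene passed between 3 and 7 dpa, and shha had 19.2 ± 8.49 and 16.2 ± 5.55 TPM. Mitosis genes were lower in 12 of 66.

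The largest gains from 3 to 7 dpa were in the chemokine ccl27b (4.53 ± 0.30, adjusted p = 2.71e-06), the matrix gene olfml2ba (3.53 ± 0.23), the lipocalin ptgdsb.1 (3.46 ± 0.38), the cartilage matrix protein gene ucmaa (3.34 ± 0.30) and mpeg1.3 (3.30 ± 0.32). Of these, ccl27b did not pass against 0 dpa (-0.59 ± 0.30, adjusted p = 0.159) but was lower than it with median-of-ratios scaling (-0.83, adjusted p = 0.0415), while ptgdsb.1 (-1.67 ± 0.38) and mpeg1.3 were still below it and olfml2ba (0.97 ± 0.23) and ucmaa (1.19 ± 0.30) above it. With the libraries of 0 and 7 dpa fitted alone, olfml2ba did not pass against 0 dpa (adjusted p = 0.0512). Against 9.24% of all genes, melanophore markers were higher at 7 than at 3 dpa in 11 of 15 and superficial epidermis markers in 12 of 31. Interferon genes were higher in 9 of 39, lymphocyte markers in 8 of 20 and clock genes in 15 of 41. Osteopontin (spp1) was higher than at both earlier times (1.47 ± 0.17 against 3 dpa), as were scpp1 (1.79 ± 0.30) and bglap (2.28 ± 0.44).

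**Figure D5:**
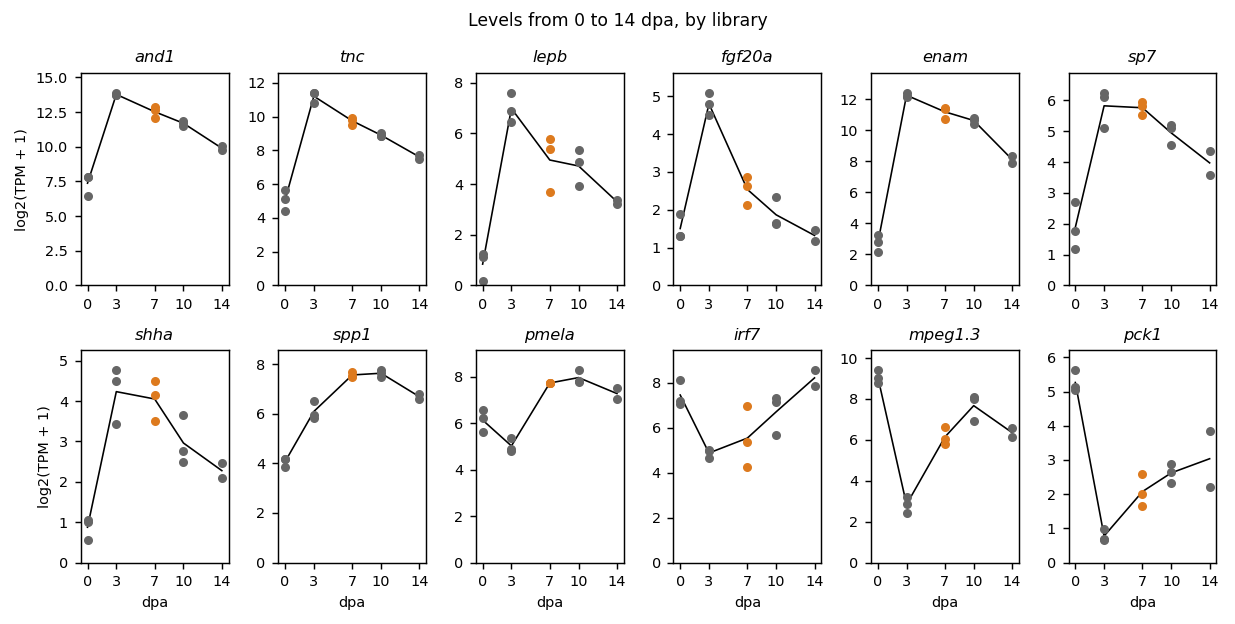
Level of 12 genes at 0, 3, 7, 10 and 14 dpa on a log2(TPM + 1) axis. Points are single libraries (3 per time, 2 at 14 dpa), lines join group means and orange marks 7 dpa: and1, tnc, lepb and fgf20a have their highest mean at 3 dpa, spp1 and pmela at 10 dpa, and irf7, mpeg1.3 and pck1 have their lowest mean at 3 dpa.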

How the data were processed

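RNA was sequenced from the distal fin ray strip, with 3 libraries at 0 and 7 dpa, each a pool of 10 animals. Reads were trimmed with Trim Galore 0.6.7 and cutadapt 3.5 and quantified with Salmon 1.4.0, with danRer11 as the genome build, per the submitters' processing notes. The authors deposited TPM values, whose total per library is 1000000 and which hold no depth, so no count test was run and no counting interval is given. Groups follow the labels; no 2 libraries held identical values.

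In R 4.3.3 with limma 3.58.1, log2(TPM + 1) was fitted with 1 mean per time over all 14 libraries and a variance trend, and p-values were adjusted (Benjamini-Hochberg) over the 10967 genes at or above 1 TPM in 2 or more of the 6 libraries. The threshold was an adjusted p of 0.05. The fit was tested on simulated data. The 58 gene lists hold 2210 symbols, of which 1776 were in the table and 1559 were tested. Lists share members, and 55 of the tested genes were on 2 or more lists. Genes named in the text were taken from the 12 largest rises and falls with at least 5 TPM and no overlap between groups, from the 5 largest each way against the other times, from marked members of each list, passed or not, and from at most 6 called members with the largest change per list. Exceptions are stated. The members and lists were chosen with earlier results of these data known. Alternatives were other pseudocounts, filters and scalings, other sets of libraries, a replicate block, variances without trend, and each library left out in turn. A planned motif description of promoters was not made.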

Additional observations from a re-analysis of the deposited data

How the results depend on the processing

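Of the 3389 genes called between 7 and 0 dpa, none changed sign under any of the 12 alternatives that keep or drop libraries together or change the scaling, filter, pseudocount or model. As reported, 2372 were higher and 1017 lower. The lower count moved to 1891 with median-of-ratios scaling and to 1662 with quantile normalization (which gave 1547 higher). It moved to 625 with the libraries of 0 and 7 dpa alone, a fit with fewer libraries. In that fit 19 of the genes named in the text lost their call (adjusted p = 0.0512 to 0.143). These were acta2, amotl2b, ankha, aox5, bglap, bmpr1ba, cdk1, etv4, fgf10a, irf7, irg1l, isg15, lamb4, lck, olfml2ba, ptch1, raraa, sox9b and tnfrsf9a. With single libraries left out, 1700 to 2939 genes were higher and 762 to 1032 lower, 1223 to 1475 passed against 3 dpa, and 0 to 1 passed against 10 dpa. Against 10 dpa, 1 gene passed with a pseudocount of 5, 2 with no filter, 1 with median-of-ratios scaling and 1 without the variance trend. Where no cause is named, the cause was not tested. Leaving out the 20 most abundant genes from the total gave 2696 higher and 920 lower, and leaving out the 4 libraries with high fosb of 0, 7 and 10 dpa 2903 and 1085; both were chosen after seeing the data.

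Deviations of same-numbered libraries from their group means correlated at -0.630, -0.526 and 0.577. The 2 libraries with high fosb, 0 dpa replicate 1 and 7 dpa replicate 2, correlated at 0.786. Since these 2 stand apart and differ in number, the values cannot show whether replicate numbers pair the libraries. With the replicate block 2227 genes were higher and 905 lower, 1519 passed against 3 dpa and 0 against 10 dpa. Of the genes named, only fgf10a lost its call with the block (adjusted p = 0.0525), and no other call changed.

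Of the 226 genes named, 196 were called, and none of these 196 reversed in any setting. Some genes not called changed direction. The ligand fgf24 was at 0.063 without the 2 or the 4 libraries with high fosb, and ranged from -0.37 to 0.25 with single libraries left out. Over the same single libraries fosb ranged from -1.88 to 0.89, hspa5 from -0.058 to 0.59, ldlra from -1.57 to 0.15, mmp13a from -0.67 to 0.11 and tp63 from -0.089 to 0.66. With median-of-ratios scaling hspa5 was at -0.024, and with quantile normalization sox9a was at -0.029.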
